A study of Mus musculus with 12 samples.

Results

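Blood-cell miRNAs were examined in cultured mouse lung endothelial cells, where they stand for RNA of leukocytes and red cells that may come along with the endothelium. The assays were found on the array by their names. The 6 found among the 375 miRNA assays on the array were listed as leukocyte or erythroid. The leukocyte miRNAs were mmu-miR-142-3p, mmu-miR-142-5p, mmu-miR-150 and mmu-miR-223. The erythroid ones were mmu-miR-451 and mmu-miR-486, which are abundant in red cells but need not come from them alone. mmu-miR-150 and mmu-miR-223 were measured on all 12 arrays, mmu-miR-142-3p on 9, mmu-miR-451 on 3, and mmu-miR-142-5p and mmu-miR-486 on 2 each. Neither erythroid miRNA was thus found on most arrays. Over 12 arrays, Pearson's r of mmu-miR-150 and mmu-miR-223 was -0.023 relative to the mean Ct (PCR cycle) of 174 miRNAs (permutation p = 0.942). Relative to U6, a small nuclear RNA, it was 0.47 (permutation p = 0.121). Some arrays may share an isolation, so these p-values are approximate. Whether the label as a group of blood-cell miRNAs holds was not tested, since mmu-miR-150 and mmu-miR-223 are abundant in different blood cells.

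The cells were primary endothelial cells from the lungs of male wild type C57BL/6N mice aged 6 to 10 weeks. Lungs of 3 mice were pooled for each isolation. Cells were taken out with magnetic beads against CD144, washed the next day to remove loosely attached cells, and grown to confluence. They were then detached, selected with beads against CD31 and grown to confluence again. Each culture is thus a pool of animals and a product of bead selection, without a sort of single cells. One group was left unstimulated (control), one received Tri-DAP, a ligand of the bacterial sensor NOD1 written TD in the labels, and one received MDP, a ligand of NOD2, each ligand at 10 µg/mL for 6 h. The hour at which control cells were harvested is not given in the sources used here. Each group held 4 TaqMan low-density arrays, which are plates of quantitative PCR wells, each reading 1 small RNA. The control arrays carry the numbers 4, 7, 10 and 13, the Tri-DAP arrays 5, 8, 11 and 14, and the MDP arrays 6, 9, 12 and 15, and they are named here by group and number. According to the methods they came from 4 independent isolations, but no source says which arrays share one, so that p-values treat all arrays of a group as separate.

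MicroRNAs are small RNAs cut from hairpin transcripts, and each binds messenger RNAs mainly through its seed near the 5′ end. mmu-miR-142 is a marker of the whole hematopoietic lineage, mmu-miR-150 is abundant in mature lymphocytes, and mmu-miR-223 is abundant in neutrophils and other myeloid cells. mmu-miR-451 and mmu-miR-486 are among the most abundant miRNAs of red cells. mmu-miR-126, which lies in an intron of the gene Egfl7, is the classical miRNA of endothelium and served as the comparison. Blood fills the lung's capillaries, so leukocytes and red cells are the first cells that a lung endothelial preparation could carry over. Plasma and small vesicles also carry several of these miRNAs, and endothelial cells can take them up.

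The mature sequences are shown because each assay reads 1 of them, and because they show how far the members with a sequence differ from one another. They are from RefSeq on build GRCm38.p6, 5′ to 3′, with the seed, bases 2 to 8, in capitals, and those of 4 of the 6 members were matched. miR-150 and miR-486 are given by name only.
mmu-miR-142a-3p: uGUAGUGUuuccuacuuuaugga
mmu-miR-142a-5p: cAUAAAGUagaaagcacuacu
mmu-miR-223-3p: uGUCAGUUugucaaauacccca
mmu-miR-451a: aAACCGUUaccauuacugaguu
mmu-miR-126a-3p: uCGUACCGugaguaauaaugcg

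The 4 members shown have 4 different seeds, and none of these seeds, nor that of mmu-miR-126a-3p, occurs in any other of the 1738 mature mouse sequences of the table. Both arms of mmu-miR-142 come from 1 hairpin, the 5p arm at chr11:87756867-87756887 and the 3p arm at chr11:87756903-87756925, both on the plus strand. mmu-miR-451a lies at chr11:78073186-78073207 on the plus strand, with the hairpin of mmu-miR-144, another erythroid miRNA, 99 bases away. mmu-miR-144 has no assay of its name on this array. mmu-miR-223-3p lies at chrX:96242884-96242905 and mmu-miR-126a-3p at chr2:26591402-26591423, both on the plus strand. RefSeq also lists hairpins on the opposite strand of Mir142 and Mir451a, named Mir142b and Mir451b.

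The readout is the threshold cycle (Ct), the PCR cycle at which a well's fluorescence passes a threshold, so a lower Ct means more RNA and 1 cycle is about a doubling. A well that did not pass within 40 cycles was deposited as 40 and was treated as undetermined. Such a well puts an upper bound on the RNA but gives no level, and it counted as missing in the main fits. Of the 375 miRNA assays, 174 were measured on all 12 arrays, 55 on none, and each array measured 231 to 254. Levels are given relative to U6, a small nuclear RNA with 4 wells on each array, as the mean U6 Ct minus the miRNA's Ct, a log2 scale. U6 means ranged from a Ct of 18.28 to 21.6, so levels are also given relative to the mean Ct of the 174 miRNAs, called the common mean here, which ranged from 28.22 to 29.7. Ct values of different assays rank miRNAs only roughly, because assays differ in efficiency.

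Arrays 13, 14 and 15, 1 from each group, stood apart from the other 9. On the log2 scale relative to the common mean, mmu-miR-145, a smooth muscle and fibroblast miRNA, was at 4.84 to 5.12 on these arrays and at -4.05 to 1.36 on the others. mmu-miR-126-3p was at 7.74 to 7.90 there and at 8.91 to 9.69 elsewhere. Several results rested on these arrays, and values without them are given as well. The arrays labelled endothelial held mmu-miR-126-3p at a mean Ct of 19.7 and mmu-miR-126-5p at 21.3. Of the 320 miRNAs measured at least once, only 5 had an earlier mean Ct than mmu-miR-126-3p. They were mmu-miR-615-5p, mmu-miR-675-5p, mmu-miR-188-3p and mmu-miR-874, each measured on 1 array, and mmu-miR-881, measured on 2. No miRNA measured on all 12 arrays had an earlier mean Ct. Markers of other cell types were measured as well. All 5 epithelial miRNAs of the miR-200 family list were measured on 10 or more arrays. Their summed level relative to the common mean was -2.96 to 3.17 on the log2 scale in controls, -1.99 to 1.68 with Tri-DAP and -0.94 to 1.97 with MDP. The value of 3.17 was that of control 4 and rested on mmu-miR-200b, at a Ct of 25.636. On that array mmu-miR-200a was undetermined, and mmu-miR-200c, mmu-miR-429 and mmu-miR-141 were at 30.875, 30.872 and 33.065. The 2 smooth muscle and fibroblast miRNAs summed to -1.04 to 5.50 in controls, -0.41 to 5.34 with Tri-DAP and -0.80 to 5.28 with MDP. Of the 3 striated muscle miRNAs, mmu-miR-1 was measured on 8 arrays, mmu-miR-133a on 6 and mmu-miR-133b on 1.

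**Figure D1:**
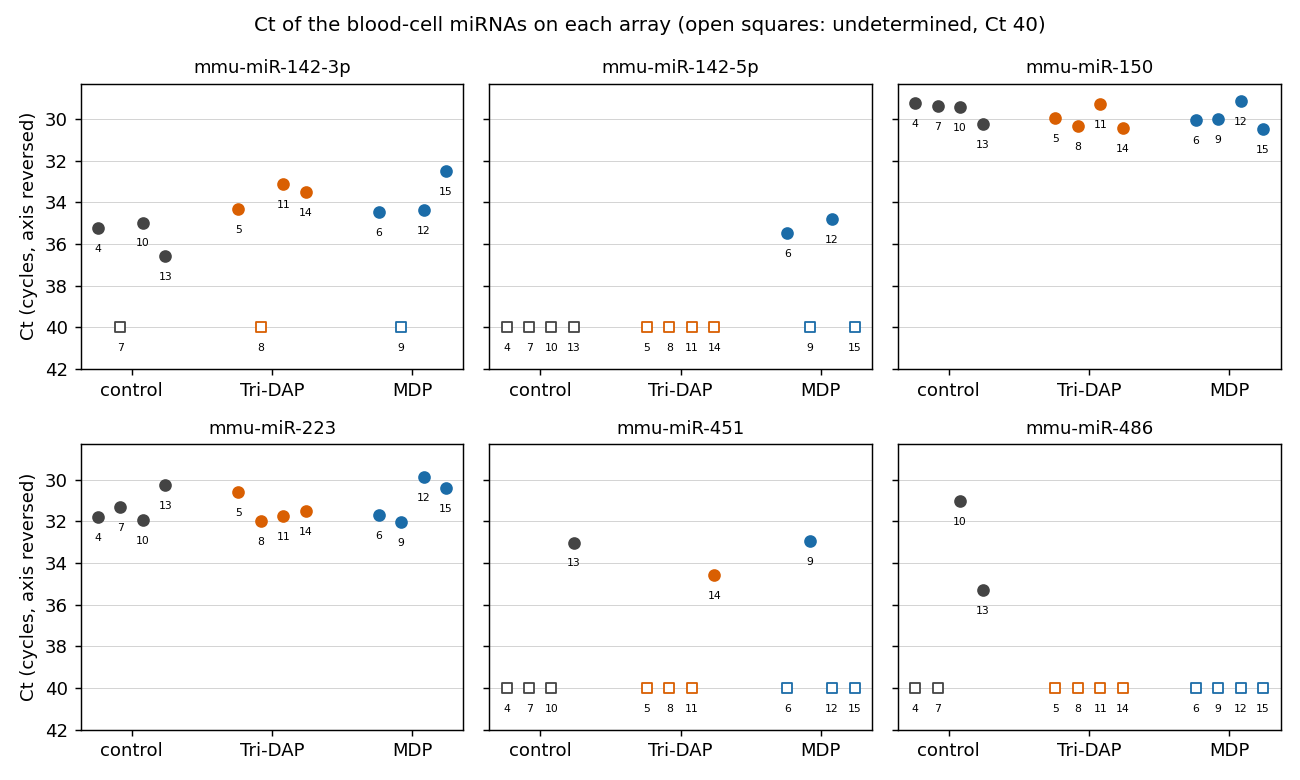
Ct in cycles of each blood-cell miRNA on each array, with the axis reversed so that more RNA is higher. Filled circles are measured wells, open squares undetermined wells drawn at 40, and the small numerals are array numbers. mmu-miR-150 and mmu-miR-223 were measured on all 12 arrays, while most wells of mmu-miR-142-5p, mmu-miR-451 and mmu-miR-486 were undetermined.

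The red-cell miRNAs were found on few arrays. mmu-miR-451, which is made without Dicer in red cell precursors, had a Ct of 33.012 on control 13, 34.59 on Tri-DAP 14 and 32.94 on MDP 9, and was undetermined on the other 9 arrays. mmu-miR-486, whose host gene is the erythroid ankyrin gene Ank1, had a Ct of 30.998 on control 10 and 35.279 on control 13 and was undetermined on the other 10. Each group thus had 1 array with mmu-miR-451, and control 13 was the only array on which both were measured. Control 13 was also the only array with the striated muscle mmu-miR-133b, at a Ct of 29.307, and had mmu-miR-133a at 31.589. The part of other cell types in its mmu-miR-486 was not tested. The summed level of both, relative to the common mean on the log2 scale, was -4.52 and -2.32 on the 2 control arrays with a value, -6.28 on the 1 Tri-DAP array and -3.61 on the 1 MDP array. Across the array, 117 assays (31.2%) were measured on 3 or fewer arrays and 102 (27.2%) on 2 or fewer, and both erythroid assays were among them. Neither was tested, since no comparison had 2 measured values in each group. With undetermined wells kept at 40, mmu-miR-486 was lower by 3.55 with Tri-DAP (log2 scale; limma, adjusted p = 0.998) and by 3.42 with MDP (adjusted p = 0.9998), neither past the unadjusted threshold, values that rest on those 2 control wells.

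**Figure D2:**
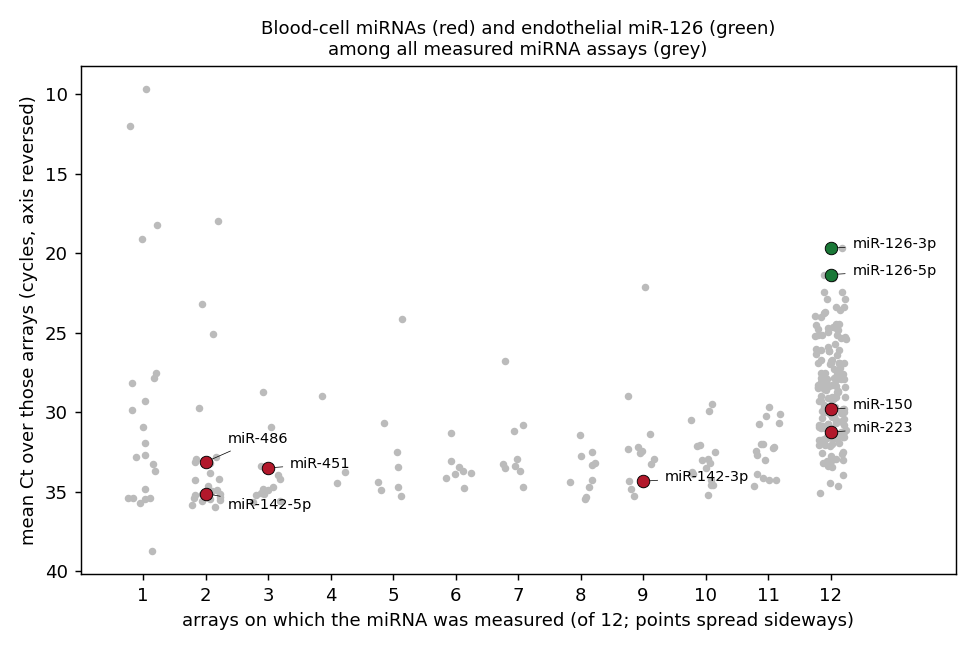
Mean Ct in cycles (reversed axis) of each miRNA against the number of arrays that measured it, for the 320 miRNAs measured at least once (grey points, spread sideways). Blood-cell miRNAs are red and both arms of the endothelial mmu-miR-126 green. The red points lie at mean Ct values of 29.8 to 35.1, the green ones at 19.7 and 21.3.

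mmu-miR-142, the miRNA that all hematopoietic lineages share, was near the limit of the method. The 5p arm had a Ct of 35.463 on MDP 6 and 34.786 on MDP 12 and was undetermined on every control and Tri-DAP array. The 3p arm had a mean Ct of 34.3 ± 1.21 (SD, n = 9 arrays), and 83.75% of the 320 miRNAs had an earlier mean Ct. Its 3 undetermined wells were on control 7, Tri-DAP 8 and MDP 9, which are the 3 arrays with the latest common mean, at 29.02, 29.7 and 29.33. On both arrays that measured both arms, the 5p arm came later, by 0.985 cycles on MDP 6 and by 0.398 on MDP 12. MDP was the only group with a measured 5p arm, but with undetermined wells kept at 40 the 5p arm was higher with MDP than in controls by 2.45 (log2 scale; limma, adjusted p = 0.9998), short of the unadjusted threshold.

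mmu-miR-150, the lymphocyte miRNA, was the earliest of the 6. Its Ct was 29.215, 29.361, 29.403 and 30.242 on control arrays 4, 7, 10 and 13. On Tri-DAP arrays 5, 8, 11 and 14 it was 29.949, 30.346, 29.285 and 30.425, and on MDP arrays 6, 9, 12 and 15 it was 30.065, 29.987, 29.12 and 30.493. The groups overlapped, and in each of them the array from 13 to 15 had the latest Ct. Over 12 arrays the mean Ct was 29.8 ± 0.51 (SD), and 37.8% of the miRNAs had an earlier mean. Relative to mmu-miR-126-3p of the same array, the Ct difference was -9.86 ± 0.32 cycles in controls, -10.4 ± 0.34 with Tri-DAP and -10.2 ± 0.35 with MDP (SD, n = 4 each).

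mmu-miR-223, the myeloid miRNA, came later than mmu-miR-150. Its Ct was 31.809, 31.316, 31.954 and 30.233 on control arrays 4, 7, 10 and 13. On the Tri-DAP arrays it was 30.59, 31.991, 31.721 and 31.495, and on the MDP arrays 31.715, 32.024, 29.883 and 30.387. The groups overlapped here as well, but the arrays from 13 to 15 held no common place, since control 13 was the earliest of its group and MDP 15 and Tri-DAP 14 the second earliest of theirs. The mean Ct over 12 arrays was 31.3 ± 0.77 (SD), and 52.5% of the miRNAs had an earlier mean. mmu-miR-150 and mmu-miR-223 varied about as much as other miRNAs, with an SD relative to the common mean of 0.66 and 0.68 on the log2 scale beside a median of 0.66 for the 174 miRNAs, of which 86 and 88 varied less.

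Fewer cells of a type and less RNA per cell cannot be told apart in these bulk samples. Over the measured wells alone, the order of the mean Ct values, from early to late, was mmu-miR-150, mmu-miR-223, mmu-miR-486, mmu-miR-451, mmu-miR-142-3p and mmu-miR-142-5p. Undetermined wells do not enter these means, and mmu-miR-486 and mmu-miR-451 were measured on 2 and 3 arrays, beside 9 for mmu-miR-142-3p. Their place before mmu-miR-142-3p therefore does not mean that they were more abundant. The single values of mmu-miR-150 and mmu-miR-223 did overlap, by control 13, MDP 12 and MDP 15 of mmu-miR-223. Those of mmu-miR-486 and mmu-miR-142-3p spanned much of the range of the last 4. Every measured well of mmu-miR-451 came before every measured well of mmu-miR-142-5p, but on different arrays. On MDP 6 and MDP 12, which alone measured mmu-miR-142-5p, mmu-miR-451 was undetermined. The miRNA that marks all leukocytes was therefore read later than both lineage miRNAs, on a scale on which assay efficiency also counts.

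The comparison of Tri-DAP with control asks what the NOD1 ligand did to these miRNAs. Of the 3 members that could be tested, none passed an unadjusted p under 0.05 by limma, beside 1.69% of all 237 miRNAs tested (4). mmu-miR-150 was at -9.38, -9.32, -10.15 and -10.80 relative to U6 (log2 scale) on the control arrays in order of number and at -10.27, -8.74, -10.73 and -12.15 on the Tri-DAP arrays. Tri-DAP 8 was the highest array and Tri-DAP 14 the lowest of both groups. The log2 fold change was -0.56 (SE 0.70, 95% interval -2.07 to 0.95, limma p = 0.438, adjusted p = 0.998, two-sided exact permutation p = 0.543). Single arrays moved it, to -1.14 without Tri-DAP 8 and to -0.0020 without Tri-DAP 14. For mmu-miR-223 the levels were -11.98, -11.27, -12.70 and -10.79 in controls and -10.91, -10.39, -13.16 and -13.22 with Tri-DAP, the Tri-DAP arrays lying on both sides of the controls. Its log2 fold change was -0.24 (SE 0.75, interval -1.85 to 1.38, limma p = 0.757, adjusted p = 0.998, exact p = 0.743), and 0.50 without arrays 13, 14 and 15.

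mmu-miR-142-3p was the member with the greatest difference. Relative to U6 it was at -15.39, -15.71 and -17.12 (log2 scale) on control arrays 4, 10 and 13 and at -14.66, -14.58 and -15.24 on Tri-DAP arrays 5, 11 and 14. All measured Tri-DAP wells were above all measured control wells, as were the groups of 1.86% of the 215 miRNAs with at least 3 measured arrays in each group (4 that did not overlap, in either direction). The log2 fold change was 1.25 (SE 0.85, interval -0.66 to 3.15, limma p = 0.175, adjusted p = 0.998), and the two-sided exact permutation p was 0.1, the smallest that 3 arrays against 3 allow.

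**Figure D3:**
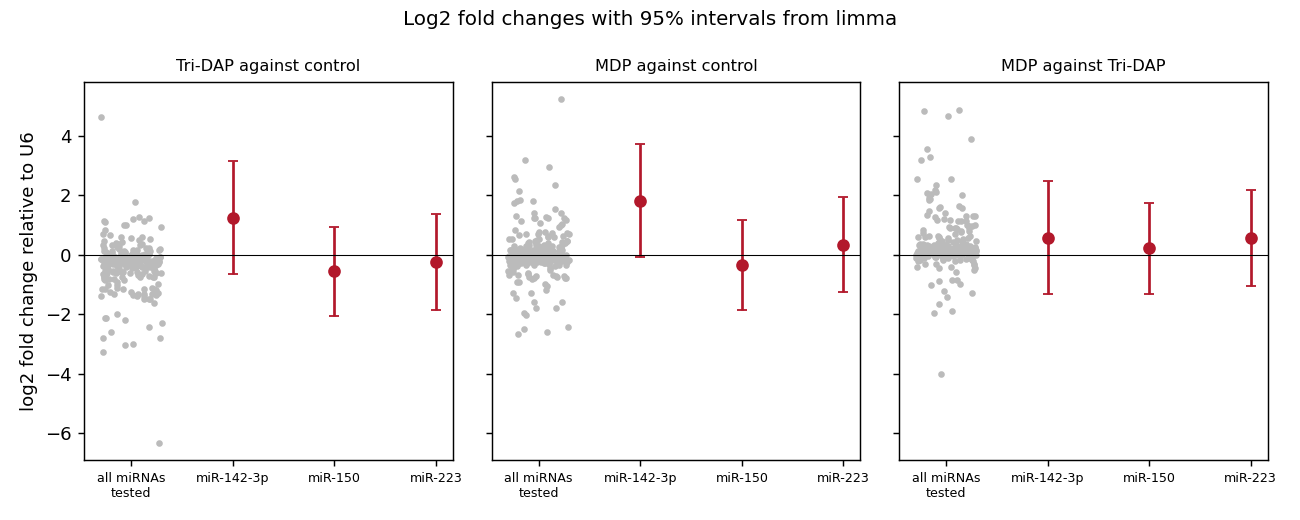
Log2 fold changes relative to U6 for the 3 comparisons. Grey points are all miRNAs tested, red points the testable members with 95% intervals from limma, and the line marks 0. All 9 red intervals include 0, and the interval of mmu-miR-142-3p for MDP against control ends nearest to it, at -0.074.

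The comparison of MDP with control asks the same of the NOD2 ligand. None of the 3 testable members was called, beside 1.23% of all 244 miRNAs tested (3). The MDP arrays 6, 9, 12 and 15 had mmu-miR-150 at -9.85, -9.98, -10.41 and -10.79 relative to U6 (log2 scale), within the range of the controls. Its log2 fold change was -0.35 (SE 0.70, interval -1.86 to 1.16, limma p = 0.629, adjusted p = 0.9997, exact p = 0.457). mmu-miR-223 was at -11.50, -12.01, -11.17 and -10.68 on the MDP arrays, of which MDP 15 alone lay above the controls, and only just. Its log2 fold change was 0.34 (SE 0.74, interval -1.27 to 1.95, limma p = 0.654, adjusted p = 0.9997, exact p = 0.514), and with single arrays left out it ranged from 0.0036 (without control 10) to 0.64 (without control 13).

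For mmu-miR-142-3p the levels relative to U6 were -14.27, -15.68 and -12.80 (log2 scale) on MDP arrays 6, 12 and 15. MDP 12 lay between the controls, so the groups overlapped, and 0.450% of the 222 miRNAs with at least 3 measured arrays in each group (1) did not. The log2 fold change was 1.83 (SE 0.85, interval -0.074 to 3.73, limma p = 0.0579, adjusted p = 0.9997), with an exact permutation p of 0.2 where 0.1 is the smallest possible. Without arrays 13, 14 and 15 it was 0.58, and 0.93 for Tri-DAP against control.

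The result for mmu-miR-142-3p turned on the reference. In Ct, without any reference, the control wells were at 35.221, 34.971 and 36.568, the Tri-DAP wells at 34.335, 33.143 and 33.523, and the MDP wells at 34.478, 34.388 and 32.504. Every measured well of a stimulated array came earlier than every measured control well. On this scale, 2.79% of 215 miRNAs (6) did not overlap between Tri-DAP and control and 1.80% of 222 (4) between MDP and control. Relative to the common mean, the control arrays were at -6.50, -6.29 and -8.35 (log2 scale), the Tri-DAP arrays at -5.51, -4.86 and -5.21, and the MDP arrays at -5.85, -5.88 and -4.13, again with no overlap of either stimulated group with the controls, as for 1.86% of 215 miRNAs (4) with Tri-DAP and 1.35% of 222 (3) with MDP.

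With the common mean as the reference, mmu-miR-142-3p was higher with Tri-DAP by 1.85 (log2 scale, SE 0.69, limma p = 0.0282, adjusted p = 0.994, exact permutation p = 0.1). With MDP it was higher by 1.76 (SE 0.69, limma p = 0.0351, adjusted p = 0.998, exact permutation p = 0.1). On this scale it was among the miRNAs called, which made up 2.11% of 237 (5) and 2.05% of 244 (5). Without control 13, whose well had the latest Ct of the 9, the values were 1.20 and 1.11 and neither passed the unadjusted threshold (limma, adjusted p = 0.997 for both). Without arrays 13, 14 and 15 they were 1.21, which passed it, and 0.53, which did not (limma, adjusted p = 0.992 and 0.995). No call passed the adjustment over all miRNAs. With wells above a Ct of 35 left out, 1 control well remained and neither comparison could be tested.

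**Figure D4:**
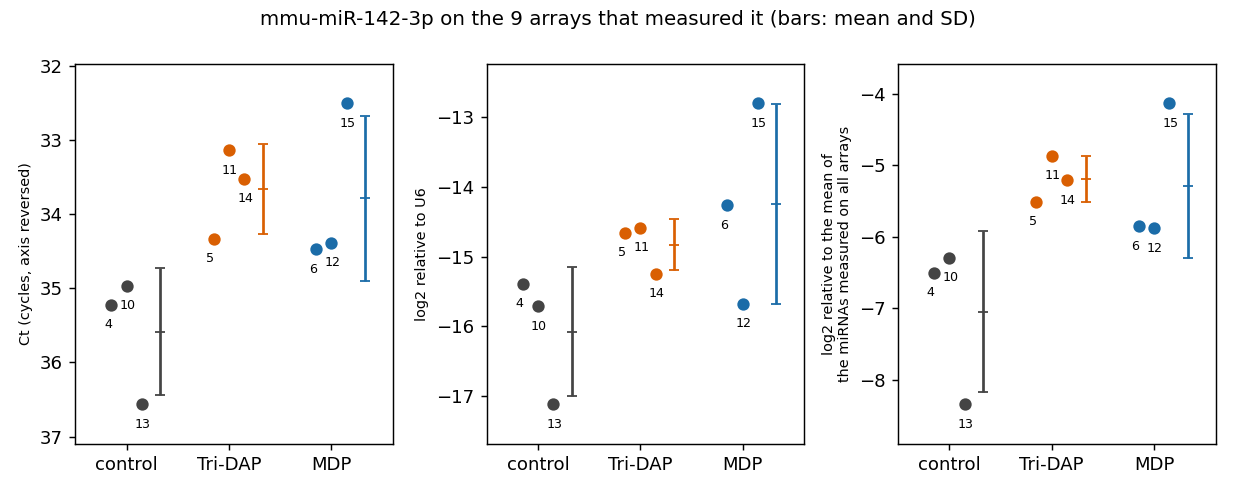
mmu-miR-142-3p on the 9 arrays that measured it, as Ct in cycles (left, axis reversed), as log2 relative to U6 (middle) and as log2 relative to the common mean of 174 miRNAs (right). Points are arrays with their numbers, bars the mean and SD of 3 arrays. Control and MDP arrays overlap only in the middle plot, where MDP 12 is at -15.68 and control 4 at -15.39.

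Relative to mmu-miR-126-3p of the same array, where the reference RNA cancels, mmu-miR-142-3p was at -15.8 ± 0.42 cycles in controls, -14.2 ± 0.995 with Tri-DAP and -14.1 ± 1.92 with MDP (SD, n = 3 each). The differences from control were 1.56 and 1.70 cycles, each with a two-sided exact permutation p of 0.1, the smallest possible. MDP 15, at -11.87, carried the MDP mean, beside -15.09 on MDP 6 and -15.29 on MDP 12. Without arrays 13, 14 and 15 the differences were 0.77 cycles with Tri-DAP and 0.37 with MDP (n = 2 each). On this scale mmu-miR-150 differed from control by -0.51 cycles with Tri-DAP (exact p = 0.0571) and by -0.34 with MDP (exact p = 0.257), where 4 arrays against 4 can reach 0.0286. mmu-miR-223 was at -11.6 ± 1.20, -11.8 ± 0.93 and -11.3 ± 1.24 cycles in control, Tri-DAP and MDP (SD, n = 4 each), with exact p of 0.857 and 0.743. These were 9 tests in all, and none passed 0.05.

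MDP and Tri-DAP were compared with each other as well. None of the 3 testable members was called, beside 2.90% of all 241 miRNAs tested (7), and none was free of overlap, beside 1.39% of 216 (3). The log2 fold changes of MDP over Tri-DAP were 0.58 for mmu-miR-142-3p (SE 0.86, interval -1.33 to 2.50, exact p = 0.7), 0.21 for mmu-miR-150 (SE 0.70, interval -1.30 to 1.73, exact p = 0.771) and 0.58 for mmu-miR-223 (SE 0.75, interval -1.04 to 2.19, exact p = 0.457). The intervals leave room for differences of more than 2-fold in either direction for each of them. Both ligands were set against the same control arrays, so that their differences from control are not independent.

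Other miRNAs that blood cells hold in plenty, but that endothelium and many other cells also express, were read earlier than all members, with mmu-miR-146b as the exception. Of 7 listed, 6 have an assay and were measured on all 12 arrays. mmu-miR-16, a broadly expressed miRNA that red cells also hold, had a mean Ct of 22.9, mmu-miR-146a, a feedback inhibitor of NF-κB signalling, 23.99, mmu-miR-155, an inflammation-induced miRNA, 25.4, mmu-miR-342-3p 26.7 and mmu-miR-181a, known from lymphocyte development, 27.8. mmu-miR-146b, at 29.96, came slightly later than mmu-miR-150 and before mmu-miR-223. None of the 6 was called in any comparison. Of all miRNAs tested, 1.69% were called for Tri-DAP against control, 1.23% for MDP against control and 2.90% for MDP against Tri-DAP. Their median log2 fold change was -0.13 with Tri-DAP beside -0.24 over all miRNAs tested, and 0.028 with MDP beside -0.022. The summed level of the list relative to the common mean stayed between 6.33 and 7.26 on the log2 scale over all 12 arrays.

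With the common mean as the reference, the 3 leukocyte miRNAs with enough arrays did not vary together. Relative to the common mean, Pearson's r of mmu-miR-150 and mmu-miR-223 was -0.023 over 12 arrays (permutation p = 0.942), with Spearman's rho 0.0070 (permutation p = 0.991). Over the 9 arrays with mmu-miR-142-3p, its r with mmu-miR-150 was -0.094 (permutation p = 0.823; rho -0.50, p = 0.178) and with mmu-miR-223 -0.11 (permutation p = 0.794; rho -0.20, p = 0.613). Adjusted over the 3 pairs, every p for r was 0.942, and for rho the adjusted p was 0.533 or more. Without the 2 arrays farthest from the median of the first miRNA, r was -0.074 for mmu-miR-150 and mmu-miR-223, -0.60 for mmu-miR-142-3p and mmu-miR-150 (permutation p = 0.159) and -0.078 for mmu-miR-142-3p and mmu-miR-223. After subtraction of the group means the 3 values of r were 0.0076, 0.15 and -0.42 in the same order. Arrays that may share an isolation are not independent, so these p-values are approximate.

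The miRNAs most like mmu-miR-150 included both arms of the endothelial mmu-miR-126, but only as far as arrays 13 to 15 set them apart. Among 206 miRNAs with at least 10 arrays in common, those most like it by Pearson's r of the level relative to the common mean were mmu-miR-10b at 0.90, mmu-miR-126-3p at 0.86 and mmu-miR-126-5p at 0.86, over 12 arrays that share the common mean. At the other end, mmu-miR-132 was last at -0.93, next to mmu-miR-199a-3p at -0.86, mmu-miR-145 at -0.84 and mmu-miR-143 at -0.83. On arrays 13, 14 and 15 mmu-miR-150 was at -2.02, -2.11 and -2.12 on the log2 scale, below all other arrays, which were at -1.44 to -0.34. Without these 3 arrays r was 0.62 for mmu-miR-10b, 0.013 for mmu-miR-126-3p, 0.21 for mmu-miR-126-5p, -0.27 for mmu-miR-143 and -0.32 for mmu-miR-145 (n = 9). Within sets of consecutive array numbers, r was -0.61 for mmu-miR-126-3p and -0.13 for mmu-miR-126-5p. The likeness to both arms of mmu-miR-126 thus rested on arrays 13 to 15, on which the smooth muscle miRNAs were high. The part of other cell types in it was not tested.

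**Figure D5:**
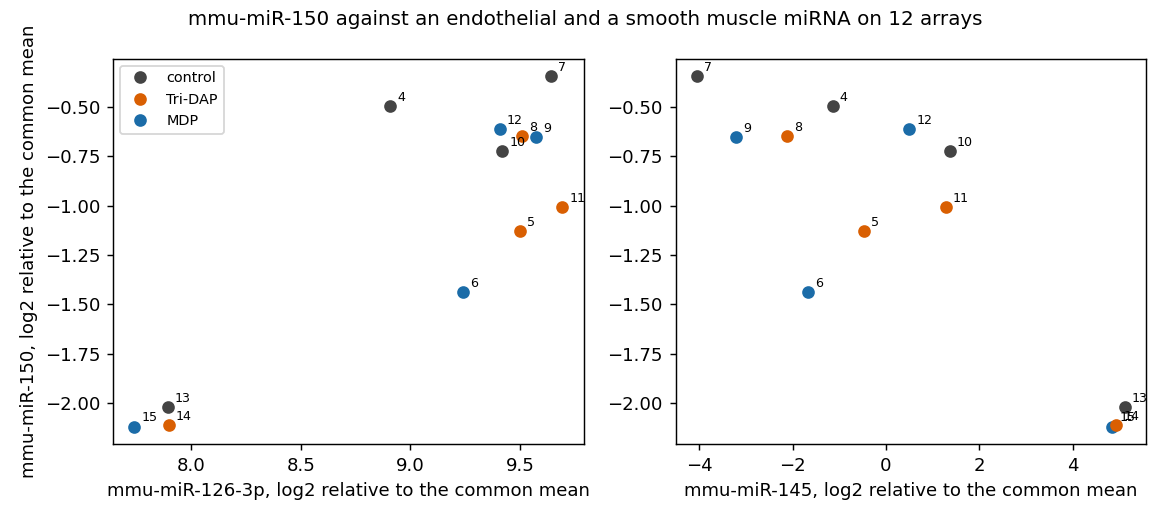
mmu-miR-150 against mmu-miR-126-3p (left) and mmu-miR-145 (right), all as log2 relative to the common mean, 1 point for each of the 12 arrays, with array numbers and colours for the groups. Arrays 13, 14 and 15 lie apart in both plots, with mmu-miR-150 at -2.12 to -2.02, and the other 9 show little relation in the left plot (r = 0.013).

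For mmu-miR-223 the likeness depended on the reference. Relative to the common mean, the miRNAs most like it were rno-miR-345-3p at r = 0.65, mmu-miR-7b at 0.54 (over 10 arrays) and mmu-miR-125b-3p at 0.53. Relative to U6, whose own variation enters every level, they were mmu-let-7c at 0.80, mmu-miR-99a at 0.79 and rno-miR-345-3p at 0.79. Relative to the common mean, its r with mmu-miR-126-3p was -0.090 and with mmu-miR-145 0.030. On arrays 13 to 15 it was at -3.18 to -2.01, inside the range of -3.44 to -1.38 of the other arrays. The level of mmu-miR-142-3p on these 3 arrays ran from -8.35 on control 13 to -4.13 on MDP 15, which were the lowest and the highest of all 9 values, while mmu-miR-150 on the same arrays stayed between -2.12 and -2.02.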

How the data were processed

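Total RNA was reverse-transcribed with a rodent primer pool by the authors and run for 40 cycles on TaqMan low-density arrays, with thresholds set automatically. The authors deposited raw Ct values in cycles and normalized values on a log2 scale, each a Ct less the array's average over its 4 U6 wells (checked, within 5.33e-15). A deposited fold-change table and 12 unnamed value columns were not used. Smallest SD of Ct differences between 2 arrays was 0.878, so no array was a copy of another. The members and the marker lists were chosen with earlier results of these data known. Named miRNAs were all 6 members, both arms of miR-126, U6, up to 5 other blood-enriched miRNAs with the lowest mean Ct and the 3 miRNAs most like each member measured on 10 or more arrays. Other marker miRNAs, the miRNAs least like mmu-miR-150 and arrays 13, 14 and 15 were singled out after their values were seen.

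Undetermined wells (40) counted as missing, and testing needed at least 2 measured values in each group compared. All 12 arrays were fitted together in limma 3.58.1 (R 4.3.3; lmFit, eBayes) on the normalized values with the sign turned, with no block. A miRNA was called where its unadjusted p was under 0.05, with Benjamini-Hochberg adjustment beside it. Exact permutation tests were two-sided (scipy 1.17.1). Correlations over 10 or 12 arrays used 100000 random permutations, and those over 7 or 9 arrays used all permutations. On simulated data with 50 miRNAs changed by 2 on the log2 scale, 61.3% of these and 4.97% of the rest passed for Tri-DAP against control (237 tested), 60.6% and 4.87% for MDP against control (244 tested), and 61.9% and 5.05% for MDP against Tri-DAP (241 tested). The simulated noise was independent between arrays and between miRNAs, with no error shared through U6 or an isolation. The simulated rates therefore need not hold for the measured arrays. Alternatives covered the reference, undetermined and late wells, filters, the arrays in the fit and single arrays left out. The number of arrays limits the precision.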

Additional observations from a re-analysis of the deposited data

How the results depend on the processing

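The main fits were not paired, because the labels give each array a number of its own and no source gives a pairing. Arrays of consecutive numbers were alike in mmu-miR-145 relative to the common mean (log2 scale). It was at -1.68 to -0.47 on arrays 4 to 6 and at -4.05 to -2.13 on 7 to 9. On arrays 10 to 12 it was at 0.50 to 1.36, and on 13 to 15 at 4.84 to 5.12. The SEs, intervals and p-values of the main fits take no account of this. Alternatives that leave out arrays 13, 14 and 15 or control 13 alone, or that use arrays of consecutive numbers as a block, were chosen after seeing the data, and no source states such sets. With these sets as a block in the limma fit, mmu-miR-142-3p was not called (1.25 for Tri-DAP and 1.83 for MDP, log2 scale). In each of the 3 sets that measured it, the control array was the lowest relative to U6, by 0.73, 1.13 and 1.88 below Tri-DAP and by 1.12, 0.035 and 4.32 below MDP in sets 4 to 6, 10 to 12 and 13 to 15, given as a description. Over all miRNAs, the main fits called 1.69% of 237 for Tri-DAP and 1.23% of 244 for MDP against control. With the common mean as the reference these shares were 2.11% and 2.05%. For other settings only counts over all miRNAs are given, below. mmu-miR-150 and mmu-miR-223 were called under no alternative. The number of members called was 1 instead of 0, always mmu-miR-142-3p, in these cases. For Tri-DAP against control its log2 fold change was 1.85 with the common mean as the reference, 1.92 with no normalization and 1.21 with the common mean without arrays 13, 14 and 15. For MDP against control it was 1.76 with the common mean, 1.80 with no normalization and 1.76 with U6 and snoRNA202. Leaving out each array in turn it was 0.72 to 1.59 for Tri-DAP with 0 members called, and 1.10 to 2.54 for MDP with 0 to 1, past the threshold without Tri-DAP 8 (1.83) and without MDP 12 (2.54), with adjusted p from limma of 0.966 or more in all of these cases.

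Several directions turned. mmu-miR-223 was higher with Tri-DAP by 0.50 without arrays 13, 14 and 15, by 0.39 with the common mean without them and by 0.22 with the common mean without control 13, and it ranged from -0.75 to 0.20 with single arrays left out, above 0 without control 13 (0.064), Tri-DAP 11 (0.18) or Tri-DAP 14 (0.20). For MDP against Tri-DAP, mmu-miR-142-3p was at -0.092 with the common mean, also without control 13, -0.12 with no normalization, -0.35 without arrays 13, 14 and 15 and -0.68 with both changes, and from -0.14 (without MDP 15) to 1.30 with single arrays left out. In the same comparison, without arrays 13, 14 and 15, mmu-miR-150 was at -0.17 and mmu-miR-223 at -0.076, and with single arrays left out mmu-miR-150 ranged from -0.34 (without Tri-DAP 14) to 0.79. With U6 as the reference, r was 0.014 for mmu-miR-142-3p and mmu-miR-150, 0.093 for mmu-miR-142-3p and mmu-miR-223, and 0.47 for mmu-miR-150 and mmu-miR-223 (permutation p = 0.121; -0.12 without Tri-DAP 8 and Tri-DAP 14), and 1 of the 3 miRNAs most like mmu-miR-223 was shared. Within sets of consecutive numbers, r of mmu-miR-150 was -0.61 with mmu-miR-126-3p and -0.13 with mmu-miR-126-5p. The cause of these changes was not tested.

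Over all miRNAs, the count for Tri-DAP against control was 4, and 8 with undetermined wells at 40, 7 with no normalization, 1 for miRNAs measured on all 12 arrays, 2 without arrays 13, 14 and 15, 8 with the common mean without control 13, 9 with consecutive sets as a block and 1 to 12 with single arrays left out (1 without Tri-DAP 5, 12 without Tri-DAP 8). For MDP against control it was 3, and 5 with U6 and snoRNA202, 5 with the common mean, 8 with the common mean without arrays 13, 14 and 15, 7 with it without control 13, 1 with at least 3 values per group, 0 for miRNAs measured on all 12 arrays, 5 with the arrays of both groups alone, 6 with consecutive sets as a block and 1 to 7 with single arrays left out. For MDP against Tri-DAP it was 7, and 4 with wells above Ct 35 missing, 3 with at least 3 values per group, 0 for miRNAs measured on all 12 arrays, 2 without arrays 13, 14 and 15, with either reference, and 2 to 17 with single arrays left out (17 without Tri-DAP 8).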
